A study of Mus musculus with 2 samples.

Results

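Type I interferon-stimulated genes are the genes that cells switch on when interferon alpha or beta binds its receptor. The receptor's kinases activate transcription factors, among them Stat2, which joins Irf9 to bind a short promoter element, and the products block virus replication, sense foreign nucleic acid or amplify the response. In tumors the same genes mark cells that have met type I interferon, and interferon gamma switches on an overlapping but different set. A list of 40 gene symbols was looked up in the deposited single-cell counts, and 38 of them had a row among 32285 genes. The other 2, Mx1 and Mx2, were not analysed here. The genes were chosen by name and not by their values, but with earlier results of these data known.

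The cells came from tumors of MC38, a mouse colon carcinoma cell line, implanted under the skin of female C57BL/6 mice 6 to 8 weeks of age, and live cells were sorted before capture. The Lmo7+/+ library held tumor cells and host cells of wild-type mice, and the Lmo7-/- library those of mice lacking Lmo7 in every host tissue, while the implanted MC38 cells were the same line with its own Lmo7 in both. Each genotype has 1 library and the number of mice behind it is not given, so no test between genotypes was possible, and every difference below describes these 2 libraries. The libraries held 98582479 and 80648345 unique molecular identifiers (UMIs, tags that each mark 1 captured RNA molecule) in 16208 and 15163 droplets, of which 13542 and 11860 passed the filters. About 10000 sorted cells per suspension were stated as the input. Between them 279 cell barcodes were shared.

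Throughout, the Lmo7+/+ library is given first. Lmo7 itself had 139 and 100 counts over all host classes and 944 and 566 in tumor cells. The position of the deletion within Lmo7 was not given in the sources used here, so this count does not check the labels of the host genotypes.

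Cells were sorted into classes by the number of marker genes with a UMI, and none of the 38 genes was a marker. This gave 3837 and 4268 macrophages, 908 and 758 monocytes, 157 and 120 dendritic cells, 307 and 489 CD8 T cells, 175 and 176 other T cells, 74 and 50 endothelial cells, 127 and 83 fibroblasts and 6139 and 4606 tumor cells. The 27 and 15 NK cells and 17 and 11 plasmacytoid dendritic cells were too few to compare. Marker lists followed the class names. Macrophage markers summed to 15803 and 19483 CPM (counts per 1000000 UMIs of the class) in macrophages and to 116.0 and 93.1 CPM in tumor cells, although the tumor cell gate itself limits them. Tumor cells were gated mainly by the absence of leukocyte markers, and 14 MC38 genes summed to 164.3 and 226.4 CPM there against 30.6 and 38.3 CPM in macrophages.

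The promoters of several of these genes carry the interferon-stimulated response element, searched here as GAAA, any 2 bases, then GAAA on either strand, where matches may overlap by a shared GAAA. RefSeq promoters (GRCm38.p6, 250 bases before to 50 after a start) were matched for 30 of the 38 genes, and 15 of the 30 held a match, or 50%, against 794 of 20267 genes in the files, or 3.92%. The stretches shown belong to the 6 genes followed through every cell class, whether or not they hold a match, and to Ifit3b, the near copy of Ifit3. Each is written 5′ to 3′ in the direction of its gene, with the matches in capitals.
Isg15, chr4:156200819-156200938, minus strand: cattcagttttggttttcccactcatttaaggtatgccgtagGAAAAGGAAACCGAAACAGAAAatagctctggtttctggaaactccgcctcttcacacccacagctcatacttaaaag
Ifit3, chr19:34583347-34583466, plus strand: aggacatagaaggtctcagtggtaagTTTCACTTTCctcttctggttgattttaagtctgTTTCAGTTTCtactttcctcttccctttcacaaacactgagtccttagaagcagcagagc
Ifit3b, chr19:34607743-34607862, plus strand: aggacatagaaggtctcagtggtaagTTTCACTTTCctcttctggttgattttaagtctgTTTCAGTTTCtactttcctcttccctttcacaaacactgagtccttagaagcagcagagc
Rsad2, chr12:26456453-26456572, minus strand: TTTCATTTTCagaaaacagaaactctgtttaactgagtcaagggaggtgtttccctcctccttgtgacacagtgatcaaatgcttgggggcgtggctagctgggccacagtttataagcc
Bst2, chr8:71537537-71537656, minus strand: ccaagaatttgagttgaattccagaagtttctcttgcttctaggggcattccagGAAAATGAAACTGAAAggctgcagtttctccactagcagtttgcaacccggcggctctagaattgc
Stat2, chr10:128270248-128270367, plus strand: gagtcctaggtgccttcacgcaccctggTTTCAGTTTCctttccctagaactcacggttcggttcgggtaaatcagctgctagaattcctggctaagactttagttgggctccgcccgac
Irf7, chr7:141266425-141266544, minus strand: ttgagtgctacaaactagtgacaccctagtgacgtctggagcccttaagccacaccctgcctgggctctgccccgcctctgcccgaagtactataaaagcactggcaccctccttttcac

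Isg15 held 3 overlapping matches, Bst2 held 2 overlapping ones and Ifit3 held 2 separate ones. Irf7 held none in its window. The stretches of Ifit3 and Ifit3b were the same at 120 of 120 bases. The genes also lie close together in families. All 4 Ifit genes sit on chromosome 19 within 99.3 kb, between 34550694 and 34650009 (GRCm38), and the 4 Schlafens are on chromosome 11. Among interferon gamma-biased genes 7 of 11 with a promoter entry also held a match.

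Summed over the 38 genes, the level was highest in monocytes and endothelial cells and lowest in CD8 T cells and tumor cells. In the Lmo7+/+ library monocytes held 4905 CPM, endothelial cells 3988 CPM and macrophages 3637 CPM. Other T cells followed with 2768 CPM, dendritic cells with 2689 CPM and fibroblasts with 2639 CPM, and the 95% Poisson intervals of these 3 classes overlapped. CD8 T cells held 1802 CPM and tumor cells 1256 CPM. In the Lmo7-/- library endothelial cells came first with 5134 CPM, before monocytes with 4243 CPM and macrophages with 3624 CPM. There CD8 T cells held 1624 CPM and tumor cells 1586 CPM, and their intervals overlapped. Intervals here and below cover counting error only, not the spread between cells or between mice.

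Macrophages held 2.89 times the summed level of tumor cells in the Lmo7+/+ library (95% binomial interval 2.86 to 2.92) and 2.28 times in the Lmo7-/- library (2.26 to 2.31). The order held for most single genes: 36 and 34 of the 38 were higher in macrophages than in tumor cells. Monocytes stood above macrophages in 33 and 28 of 38. The shares of all genes with these orders are not given, so the counts do not set the 38 apart. The 5 genes with the most counts, Ifi27l2a, Bst2, Irf7, Isg15 and Oasl2, made up 44.0% of the sum in macrophages, so the sum leans on them and medians over genes are given beside it.

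**Figure D1:**
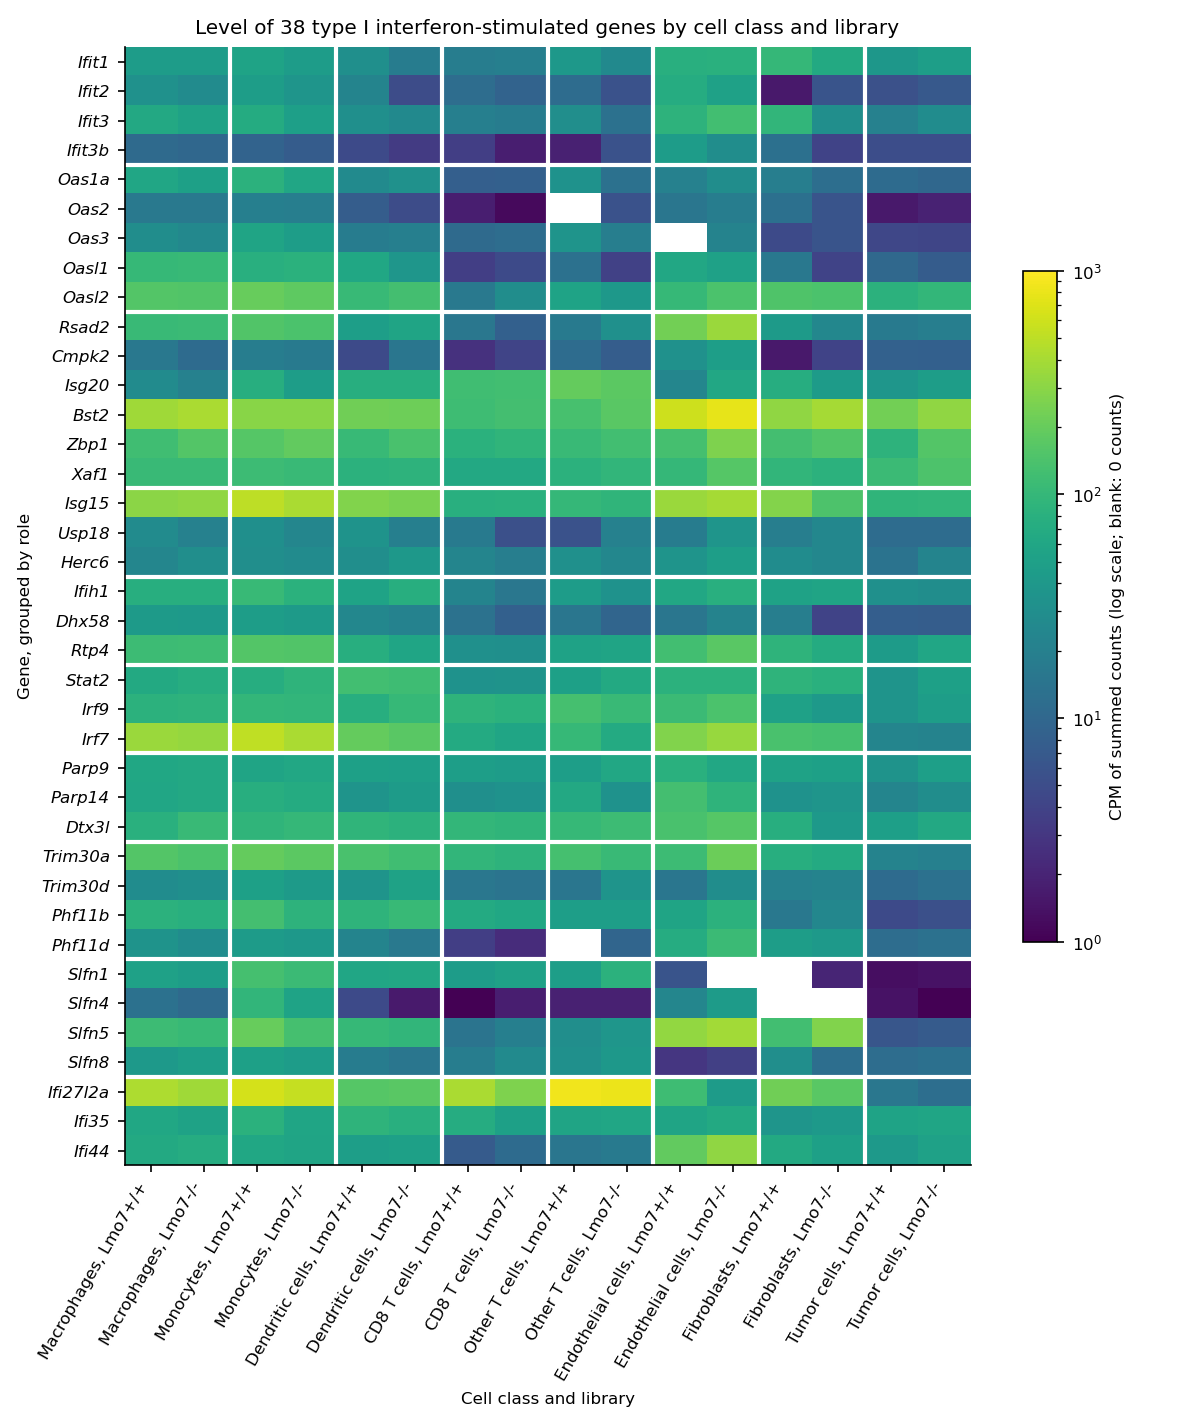
Level of each of the 38 genes (rows, grouped by role) in 8 cell classes and both libraries (columns), as CPM of summed counts on a log colour scale from 1 to 1000 CPM, with lower values in the darkest colour and 0 counts left blank. Bst2 and Isg15 are bright in most classes, Irf7 and Ifi27l2a are bright in monocytes and macrophages and dim in tumor cells, and Slfn1 and Slfn4 are near the bottom of the scale in tumor cells.

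In macrophages the sum of the 38 genes was at nearly the same level in both libraries, while single genes differed in both directions. The summed level was 3637 CPM (3612 to 3661) in the Lmo7+/+ and 3624 CPM (3599 to 3649) in the Lmo7-/- library. Their log2 ratio was -0.01 (-0.02 to 0.01), where a negative value means lower in the Lmo7-/- library. Ratios were taken where the libraries together held 50 or more counts of a gene, and a log2 ratio of 0.5 or more in either direction was called past the fold. None of the 38 was past it, while 3.29% of 11777 genes were higher and 7.62% were lower by that measure. The median log2 ratio was -0.04 over the 38 genes and -0.12 over all genes. Single ratios of the 38 ran from -0.49 to 0.41. Their counting intervals lay below 0 for 16 genes and above 0 for 9, and the share of all genes with such intervals is not given. Scaling by TMM, which brings the median of all genes close to 0, shifted every macrophage ratio up by 0.12 and the median of the 38 to 0.08, so directions of less than that size depend on the scaling. In the same cells median UMIs per cell were 5031 and 4331.5, the 10 dissociation stress genes had a median log2 ratio of -0.29 and the 7 proliferation genes -0.32. Their part in these values was not tested.

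The Ifit proteins bind foreign RNA and work in complexes. Ifit1 was at 45.3 and 45.7 CPM in macrophages and Ifit2 at 33.0 and 27.8 CPM. Ifit3 was at 64.5 and 52.9 CPM, a log2 ratio of -0.29 (-0.40 to -0.17). Its copy Ifit3b was at 10.8 and 9.97 CPM, and since the 2 genes are alike their counts are uncertain. None of the Ifit genes passed the fold. The oligoadenylate synthetases make the messenger that activates RNase L. Oas1a was at 59.9 and 50.2 CPM, Oas2 at 16.5 and 16.2 CPM and Oas3 at 29.5 and 25.4 CPM. The family's Oasl1, known to restrain Irf7 translation, was at 101.2 and 104.1 CPM, and Oasl2 was at 156.9 and 151.4 CPM.

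Among direct antiviral effectors, Bst2 (tetherin, which holds budding virus at the membrane) was at 373.9 and 411.6 CPM. Rsad2 (viperin, which makes a chain-terminating nucleotide) was at 107.1 and 111.3 CPM. Its neighbour Cmpk2, a mitochondrial nucleotide kinase, was at 15.9 and 11.3 CPM, the lowest macrophage ratio of the 38 at -0.49 (-0.73 to -0.26). The exonuclease gene Isg20 was at 27.9 and 20.9 CPM and Xaf1 at 106.7 and 108.3 CPM. Zbp1, a sensor of Z-form nucleic acid, was at 119.3 and 157.1 CPM, a log2 ratio of 0.40 (0.33 to 0.47) that passed the fold at 0.52 under TMM. Isg15, a ubiquitin-like modifier, was at 297.7 and 321.4 CPM. Usp18, which removes it and dampens receptor signaling, was at 28.3 and 20.9 CPM, and its ligase Herc6 was at 23.8 and 30.1 CPM. None of these effectors passed the fold in macrophages.

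The RNA sensors Ifih1 and Dhx58 were at 76.6 and 75.7 CPM and at 43.1 and 40.7 CPM, and Rtp4 was at 113.1 and 116.4 CPM. Of the transcription factors, Stat2 was at 66.3 and 74.4 CPM, a log2 ratio of 0.17 (0.07 to 0.27). Irf9 was at 85.6 and 86.4 CPM, and Irf7, which drives interferon alpha genes, was at 350.7 and 332.3 CPM. None of the sensors and factors passed the fold. Dtx3l, a ubiquitin ligase, and Parp9 form a complex, and they were at 80.6 and 106.8 CPM and at 62.0 and 65.2 CPM. The Dtx3l ratio of 0.41 (0.32 to 0.49) was the highest of the 38, and 0.53 under TMM. Parp14 was at 59.1 and 64.8 CPM.

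None of the remaining genes passed the fold either. Trim30a was at 156.4 and 142.1 CPM, Trim30d at 28.8 and 31.5 CPM, Phf11b at 84.8 and 78.6 CPM and Phf11d at 35.2 and 29.2 CPM. Each of these pairs has near-identical copies, so reads could be split between them. Schlafens affect proliferation and differentiation of immune cells. Slfn1 was at 51.7 and 46.4 CPM, Slfn4 at 13.2 and 10.8 CPM, Slfn5 at 114.5 and 104.3 CPM and Slfn8 at 41.6 and 47.6 CPM. Ifi27l2a was at 427.0 and 369.4 CPM, Ifi35 at 62.1 and 53.7 CPM and Ifi44 at 66.3 and 71.3 CPM.

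**Figure D2:**
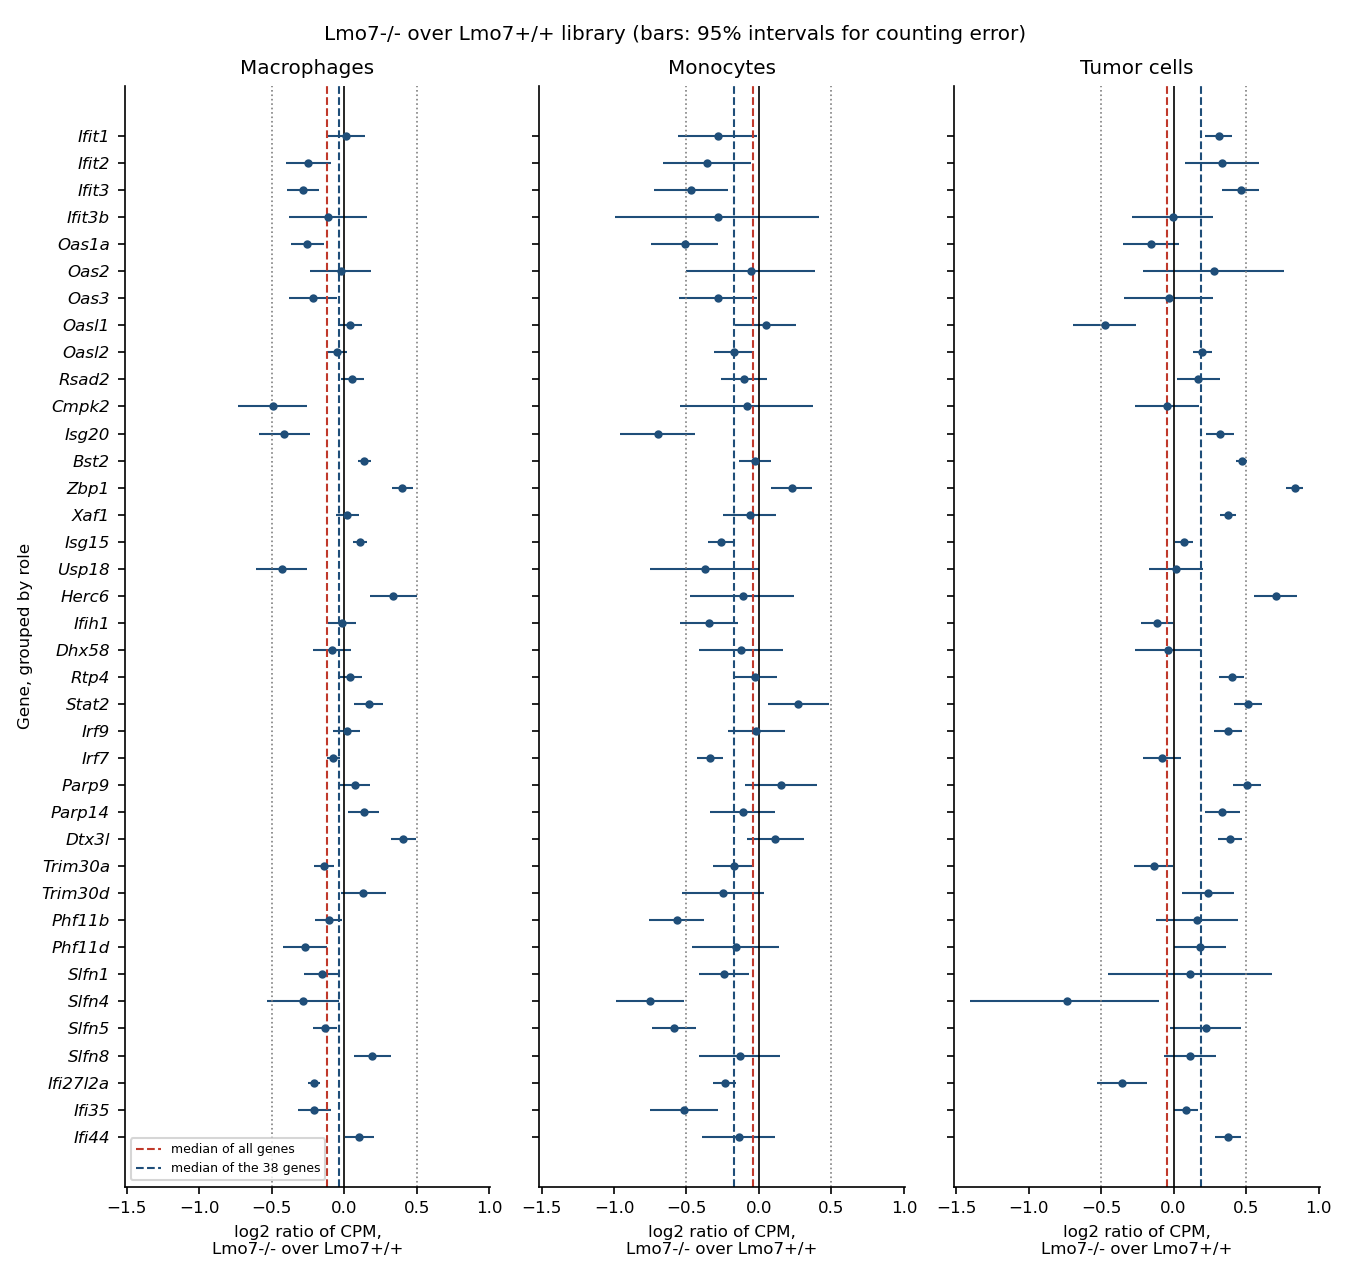
Log2 ratio of CPM, Lmo7-/- over Lmo7+/+ library, of each of the 38 genes (points, with 95% binomial intervals for counting error as bars) in macrophages, monocytes and tumor cells. Dotted lines mark log2 ratios of -0.5 and 0.5 and dashed lines the median of the 38 genes and of all genes. Points gather near 0 in macrophages, lie mostly left of 0 in monocytes and mostly right of 0 in tumor cells.

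In monocytes most of the 38 genes had ratios below 0. The summed level was 4905 CPM (4844 to 4966) against 4243 CPM (4180 to 4306). The sum had a log2 ratio of -0.21 (-0.24 to -0.18), and 33 of the 38 ratios were below 0. The median was -0.17 against -0.04 over all genes, whose share below 0 is not given. Past the fold, 6 were lower and none was higher, while 5.2% of 9276 genes were lower and 3.34% higher. The genes with the lowest ratios were Slfn4 (93.5 and 55.6 CPM, -0.75), the exonuclease Isg20 (75.4 and 46.5 CPM, -0.70) and Slfn5 (198.3 and 132.1 CPM, -0.59). Phf11b (128.2 and 86.6 CPM, -0.57) and Ifi35 (82.6 and 57.8 CPM, -0.51) followed, and Oas1a was at 85.3 and 59.8 CPM (-0.51). These 6 are the genes past the fold, and their intervals lay below 0.

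Of the genes followed in every class, Stat2 alone had a ratio above 0 in monocytes. Isg15 was at 497.4 and 415.2 CPM, a log2 ratio of -0.26 (-0.35 to -0.17). Ifit3 was at 69.2 and 49.9 CPM, and Irf7 at 521.5 and 412.7 CPM, a log2 ratio of -0.34 (-0.43 to -0.25). Rsad2 was at 153.7 and 143.2 CPM and Bst2 at 296.3 and 290.7 CPM, with intervals that held 0. Stat2 was at 74.0 and 89.3 CPM, the highest ratio of the 38 at 0.27 (0.06 to 0.48). Next came Zbp1 at 162.7 and 190.1 CPM (0.22), Parp9 at 57.1 and 63.5 CPM (0.15), Dtx3l at 91.0 and 98.4 CPM (0.11) and Oasl1 at 78.9 and 81.4 CPM (0.05). Monocyte markers in these cells summed to 2290 and 1803 CPM and macrophage markers to 9574 and 10705 CPM, and the C1q genes, which macrophages make, were at 61.7% and 58.3% of their macrophage level, so this class also carried macrophage transcripts. The 10 dissociation stress genes had a median log2 ratio of -0.25. The part of these lists in the values was not tested. With 1 more marker of its own asked of each cell and 1 fewer of other classes allowed, 11 genes were lower past the fold and the median was -0.37.

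In tumor cells most of the 38 genes had ratios above 0. The summed level was 1256 CPM (1246 to 1267) against 1586 CPM (1574 to 1599). The sum had a log2 ratio of 0.34 (0.32 to 0.35), and 27 of the 38 ratios were above 0. The median was 0.19 against -0.04 over all genes, whose share above 0 is not given. Past the fold, 4 were higher and 1 was lower, while 2.86% of 12637 genes were higher and 4.39% lower. The highest ratio was that of Zbp1 (87.7 and 156.3 CPM, 0.83), before Herc6 (14.0 and 22.8 CPM, 0.71), Stat2 (35.7 and 50.9 CPM, 0.51) and Parp9 (34.7 and 49.4 CPM, 0.51). Bst2 stood just inside the fold at 227.8 and 315.6 CPM, a log2 ratio of 0.47 (0.43 to 0.51).

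The tumor cell values were not uniform. Ifit3 was at 20.6 and 28.4 CPM (0.46), while Isg15 was at 90.6 and 95.2 CPM (0.07) and Rsad2 at 17.0 and 19.2 CPM (0.17). Irf7 was at 23.3 and 22.1 CPM, with an interval that held 0. At the low end were Slfn4 (1.40 and 0.841 CPM, -0.74, from 67 and 31 counts), Oasl1 (10.2 and 7.38 CPM, -0.47), Ifi27l2a (15.5 and 12.1 CPM, -0.35), Oas1a (11.3 and 10.1 CPM, -0.16) and Trim30a (22.1 and 20.1 CPM, -0.14). The C1q genes were at 0.684% and 0.451% of their macrophage level in tumor cells, a share that the gate itself keeps low. H2-Aa, not among the markers, was at 313.7 and 488.2 CPM in tumor cells and at 7594 and 11808 CPM in macrophages. Of the low-end genes, macrophages held from 5.31 and 4.96 times (Oas1a) to 27.6 and 30.5 times (Ifi27l2a) the tumor cell level. The part of macrophage RNA in these low values was not tested. In tumor cells the dissociation stress genes had a median log2 ratio of -0.17 and the proliferation genes 0.18, and their part was not tested.

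The smaller classes gave fewer genes and wider intervals, and their counts moved with the processing. Over the alternatives run, endothelial cells had from 0 to 10 genes higher and from 0 to 6 lower, with a median from 0.092 to 0.50, and fibroblasts from 0 to 3 higher and from 1 to 7 lower, with a median from -0.28 to 0.44. In dendritic cells, CD8 T cells and other T cells the median also took either sign, and each count of genes ran from 0 up to between 3 and 6. In endothelial cells 18 of the 38 genes had 50 counts, and 6 were higher and 2 lower past the fold, against 10.5% and 11.3% of 2251 genes. Counting intervals lay above 0 for 6 of the 18 genes and below 0 for 1. The share of all genes with such intervals is not given, here or for the classes below. The summed level there was 3988 CPM (3776 to 4208) and 5134 CPM (4868 to 5411). The highest ratios were those of Zbp1 (128.9 and 262.2 CPM), Trim30a (113.9 and 214.2 CPM), Ifi44 (188.9 and 317.6 CPM), Xaf1 (98.9 and 162.5 CPM) and Phf11d (72.0 and 110.8 CPM), and Rsad2 was at 230.9 and 350.9 CPM. Ifi27l2a was at 116.9 and 44.3 CPM and Parp14 at 125.9 and 88.6 CPM, the 2 below 0, and Slfn5 was at 326.8 and 384.1 CPM. Bst2 was at 590.6 and 764.6 CPM, Isg15 at 356.8 and 395.2 CPM, Irf7 at 266.8 and 347.2 CPM, Ifit3 at 86.9 and 121.9 CPM and Stat2 at 83.9 and 85.0 CPM. In these cells 6 of the 10 dissociation stress genes were lower past the fold, and the part of that was not tested.

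In fibroblasts 20 genes had 50 counts, and 1 was higher and 5 lower, against 8.55% and 13.7% of 3720 genes. Counting intervals lay above 0 for 2 of the 20 genes and below 0 for 3, with no share of all genes given. Ifit3 was at 95.5 and 30.3 CPM, from 60 and 15 counts, and Isg15 at 276.9 and 145.4 CPM, from 174 and 72 counts. Dtx3l was at 76.4 and 40.4 CPM, Isg20 at 74.8 and 44.4 CPM and Ifit1 at 98.7 and 66.7 CPM. In contrast Slfn5 was at 122.5 and 266.7 CPM and Bst2 at 318.3 and 391.9 CPM, with Zbp1 at 127.3 and 153.5 CPM. Irf7 was at 136.9 and 131.3 CPM, Stat2 at 89.1 and 80.8 CPM and Ifih1 at 54.1 and 56.6 CPM. In these cells all 5 proliferation genes with 50 counts were lower past the fold (median -1.76) and 3 of 10 dissociation stress genes were higher (median 0.40), and their part was not tested.

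In CD8 T cells 23 genes had 50 counts, and 2 were higher and 2 lower, against 5.5% and 6.64% of 6582 genes. Counting intervals lay above 0 for 1 of the 23 genes and below 0 for 2, with no share of all genes given. Ifi27l2a was at 413.7 and 264.6 CPM, a log2 ratio of -0.64 (-0.84 to -0.45), and Ifih1 at 22.5 and 15.5 CPM. Oasl2 was at 16.2 and 29.7 CPM, from 18 and 50 counts, and Slfn8 at 18.9 and 27.4 CPM. Isg15 was at 78.2 and 80.9 CPM, Bst2 at 116.0 and 125.5 CPM and Irf7 at 68.4 and 58.3 CPM, with intervals that held 0. Ifi35 was at 71.1 and 51.1 CPM, Herc6 at 23.4 and 19.0 CPM, Ifit3 at 19.8 and 18.4 CPM, Stat2 at 34.2 and 35.1 CPM, Zbp1 at 81.8 and 92.2 CPM and Slfn1 at 45.0 and 51.7 CPM. Of 9 dissociation stress genes with 50 counts 2 were higher and 3 lower, and their part was not tested.

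In other T cells 18 genes had 50 counts, and 1 was higher and 2 lower, against 7.34% and 8.13% of 3665 genes. Slfn1 was higher at 47.5 and 83.6 CPM, and Parp14 (64.6 and 34.2 CPM) and Irf7 (102.7 and 68.4 CPM) were lower. Counting intervals lay above 0 for 1 of the 18 genes and below 0 for 1, with no share of all genes given. Of 7 dissociation stress genes with 50 counts 2 were lower past the fold, and their part was not tested. Within the fold stood Oasl2 (55.1 and 39.9 CPM), Irf9 and Trim30a (both 129.3 and 108.3 CPM), Isg15 (100.8 and 91.2 CPM), Zbp1 (108.4 and 123.5 CPM), Bst2 (135.0 and 169.1 CPM), Stat2 (51.3 and 66.5 CPM) and Parp9 (47.5 and 62.7 CPM). In dendritic cells 25 genes had 50 counts, and 1 was higher (Trim30d, 36.0 and 52.9 CPM) and 1 lower (Oasl1, 65 and 23 counts, a log2 ratio of -0.70), against 8.96% and 18.5% of 4942 genes, and none of the 25 intervals left out 0. Rtp4 was at 76.8 and 57.8 CPM, Trim30a at 139.4 and 119.0 CPM, Ifi35 at 90.1 and 77.7 CPM, Irf7 at 196.3 and 170.2 CPM and Isg15 at 270.2 and 249.5 CPM. Stat2 was at 122.3 and 117.3 CPM, Bst2 at 222.8 and 218.1 CPM and Rsad2 at 47.4 and 56.2 CPM. Zbp1 (105.3 and 137.2 CPM), Herc6 (30.3 and 39.7 CPM), Irf9 (76.8 and 102.5 CPM) and Ifih1 (55.0 and 76.0 CPM) had ratios above 0 with intervals that held 0. Of the 7 proliferation genes 5 were lower past the fold in dendritic cells (median -0.67), and of 9 dissociation stress genes 2 were higher and 3 lower, and their part was not tested.

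Genes that respond mainly to interferon gamma had a higher median log2 ratio than the 38 in every class but endothelial cells. There it was 0.35 against 0.42 for the 38, and these differences were not tested. Of the 16 gamma-biased genes, 14 were higher past the fold in macrophages and 12 in tumor cells. Of 14 with 50 counts in monocytes 8 were higher, and none was lower in these 3 classes. Over all genes, 3.29% in macrophages, 3.34% in monocytes and 2.86% in tumor cells were higher past the fold. The shares lower were 7.62%, 5.2% and 4.39%. The median log2 ratio of the gamma-biased genes was 0.77 in macrophages, 0.58 in monocytes and 0.97 in tumor cells, beside -0.04, -0.17 and 0.19 for the 38. The guanylate-binding protein gene Gbp2 was at 177.5 and 328.7 CPM in macrophages and at 171.6 and 415.5 CPM in tumor cells. The chemokine gene Cxcl9 was at 68.5 and 195.4 CPM in tumor cells. These genes were picked with earlier results known, so their direction is a description. Of 29 further interferon-stimulated genes, none in macrophages, 1 in monocytes and 1 in tumor cells was higher past the fold and none was lower. These counts stand beside the same shares of all genes, and the medians were -0.06, -0.12 and 0.05.

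**Figure D3:**
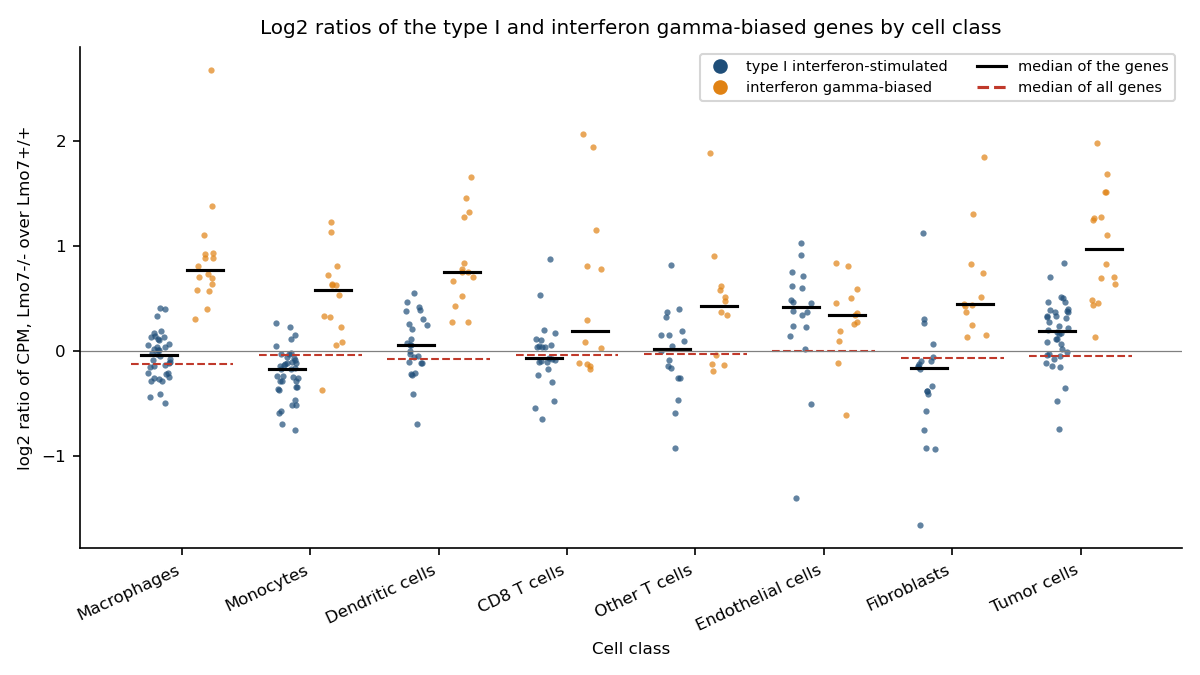
Log2 ratio of CPM, Lmo7-/- over Lmo7+/+ library, of the type I interferon-stimulated genes (blue) and the interferon gamma-biased genes (orange) with at least 50 counts in each of 8 cell classes. Black bars are the medians of the genes and red dashed lines the medians of all genes. The medians are -0.04 and 0.77 in macrophages, 0.19 and 0.97 in tumor cells and 0.42 and 0.35 in endothelial cells.

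Upstream of the 38 genes, 1 of 21 interferon genes had 50 counts in any of the 8 classes. This was Ifng, which encodes interferon gamma, with 106 and 200 counts in CD8 T cells (95.3 and 118.9 CPM) and 71 and 70 counts in other T cells (135.0 and 133.0 CPM), and both intervals of the ratio held 0. Ifnb1 had 9 and 16 counts in macrophages. The receptor genes Ifnar1 and Ifnar2 were at 74.2 and 77.8 CPM and at 163.3 and 176.2 CPM in macrophages, and none of the 8 receptor and kinase genes with 50 counts was past the fold in macrophages, monocytes or tumor cells.

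Within a class the 38 genes were unevenly spread over cells. Each cell was thinned to 1500 UMIs so that depth was equal, which left out 323 and 418 of the macrophages, 44 and 43 of the monocytes and 1027 and 764 of the tumor cells. A macrophage then held a mean of 5.93 and 5.66 UMIs of the 38 genes, a monocyte 8.24 and 7.28 and a tumor cell 2.02 and 2.46. Cells without any were 4.07% (3.44 to 4.78) and 3.14% (2.61 to 3.74) of macrophages and 24.9% (23.7 to 26.1) and 19.7% (18.5 to 21.0) of tumor cells. No class that lacks these genes was at hand to measure the share that free RNA gives. The 10% of cells with the most held 29.5% and 27.3% of the UMIs in macrophages, 32.0% and 31.4% in monocytes and 37.1% and 35.6% in tumor cells. This share also rises where cells hold few UMIs, so it does not rank the classes. The variance of the per-cell sum over its mean ordered them differently. It was 4.48 and 3.46 in macrophages, 7.21 and 6.18 in monocytes and 2.86 and 3.27 in tumor cells. This measure can rise with the mean, which differed between the classes, so it does not rank them either. The highest macrophage held 55 and 58.

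The genes gathered in the same cells. Cells were ranked by the UMIs of the other genes, and each gene's mean in the top 10% was set against the remaining cells. The median of this fold over genes with 50 thinned UMIs was 3.15 and 2.75 in macrophages, 3.49 and 3.31 in monocytes and 3.78 and 4.12 in tumor cells, and all of the 30 to 38 genes were above 1. In macrophages Ifit3 had a fold of 11.4 and 7.66, and Rsad2 of 9.76 and 6.26. Isg15 had 4.39 and 2.86 and Irf7 2.93 and 2.47. Bst2 was more evenly spread, at 1.45 and 1.49. In tumor cells Rsad2 had 14.7 and 21.0, from 140 and 120 UMIs. These folds describe cells of 1 library each and were not tested. No such fold is given for other genes. Ifit3 and its near copy Ifit3b each count in the ranking of the other, and their counts are uncertain.

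**Figure D4:**
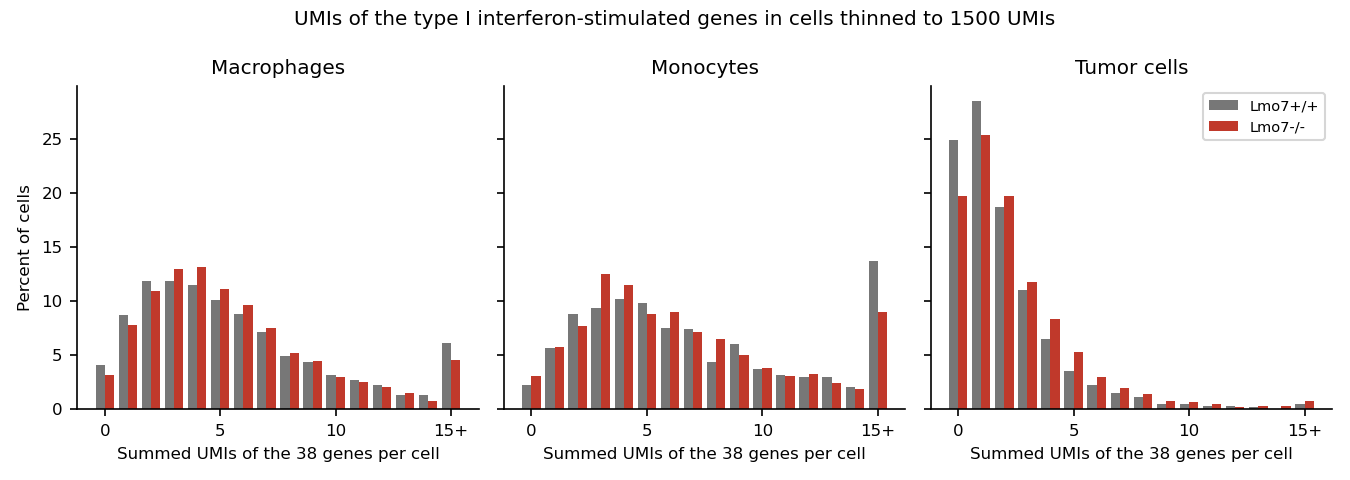
Percent of macrophages, monocytes and tumor cells (y axis) with each summed number of UMIs of the 38 genes (x axis, 15 or more pooled), in cells thinned to 1500 UMIs, for the Lmo7+/+ (grey) and Lmo7-/- (red) library. Tumor cells pile up at 0 to 2 UMIs, with 24.9% and 19.7% at 0, while monocytes have the fullest last bin.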

How the data were processed

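Raw UMI counts per gene and droplet were used as deposited by the authors for 2 libraries, with no normalization. The submitters' processing notes name Cell Ranger 2.1.1 and the mm10 build, while the matrix header gives software version 3.0.0, and filters and annotation are not given in the sources used here. The 40 gene symbols, the markers and the gene lists were chosen with earlier results of these data known, and the thresholds of the gates were set after the data were seen.

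Droplets were kept from 500 genes and 1000 UMIs up, with no more than 15% of UMIs from mitochondrial genes. A cell was a macrophage with at least 5 macrophage markers, and a monocyte with at least 2 monocyte and 3 macrophage markers. T cells and endothelial cells needed 3 markers of their own, dendritic cells 2 and fibroblasts 4 with 2% collagen UMIs. Tumor cells had no Ptprc UMI and at most 2 macrophage markers. Cells that met no gate or several, 13.1% and 10.8%, were left out. Markers that several classes carried (Vcan, F13a1, Fscn1, Klra4, Tcf4, Flt1) were not used. Doublets were kept, and Scrublet marked 2.9% and 2.6% of cells.

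Counts were summed by class and library and divided by the class total. Levels carry exact Poisson and ratios and shares exact Clopper-Pearson 95% intervals, which cover counting error only. A library at 0 was set to 3 counts. Every gene of the list was named in macrophages, and elsewhere the 5 highest and 5 lowest ratios with Isg15, Ifit3, Rsad2, Irf7, Stat2 and Bst2. Gene lists covered interferon ligands, receptors and kinases, nucleic acid sensors, brakes, other interferon-stimulated genes, interferon gamma-biased genes, dissociation stress and proliferation. A list of further transcription factors is not reported here. No test between the genotypes was run. Gene positions came from GENCODE (GRCm38). The ratio and its interval were tested on simulated Poisson counts without spread between cells, so their coverage on the real counts was not tested. Computation ran in Python 3.11.15 with scipy 1.17.1, numpy 2.4.6, scanpy 1.11.5 and igraph 0.11.9, and R 4.3.3 with edgeR 4.0.16 for TMM factors only. Alternatives were other filters, gates, doublet removal, Louvain clusters built without the 38 genes, other scalings, thinning, per-cell means, other count minimums, a larger fold, and the list without near-identical copies.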

Additional observations from a re-analysis of the deposited data

Results flagged for a closer look

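For 6 genes the log2 ratio of the Lmo7-/- over the Lmo7+/+ library lay above 0 in tumor cells and below 0 in monocytes, with both counting intervals clear of 0. The ratios were 0.31 in tumor cells and -0.28 in monocytes for Ifit1, 0.33 and -0.36 for Ifit2, and 0.46 and -0.47 for Ifit3. Isg20 had 0.32 and -0.70, Oasl2 0.20 and -0.17, and Isg15 0.071 and -0.26. None of the 6 passed the fold in tumor cells, and Isg20 alone passed it in monocytes. With 1 library per genotype the difference between the classes was not tested. The rule asked only for counting intervals clear of 0, so a ratio as small as the 0.071 of Isg15 in tumor cells met it. The share of all genes that met the same rule is not given here. Whether 6 genes are more than that share would give was therefore not tested.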

How the results depend on the processing

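No paired analysis was possible because each genotype has 1 library. The limit on all values is that 1 library per genotype gives no spread between mice, and counts of the smaller classes leave wide intervals. The summed macrophage log2 ratio of -0.01 changed sign among alternatives: it was -0.024 with the lenient filter, 0.017 with the strict one, -0.026 without doublets, -0.044 in Louvain clusters, -0.029 with the stricter gate, 0.11 under TMM, 0.019 without the 10 most abundant genes, -0.068 after thinning, -0.078 as a mean of cells and 0.012 without near-identical copies. The macrophage median was 0.081 under TMM, where 2 genes were higher past the fold. Lower past the fold in macrophages were 1 gene with the lenient filter, with the stricter gate and without shared barcodes (an alternative chosen after seeing the data), and 3 after thinning and as a mean of cells.

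In monocytes the stricter gate gave a median of -0.37, a summed ratio of -0.34 and 11 lower genes in place of 6. The summed ratio was -0.17 under TMM and -0.18 after thinning, and 0 genes were lower at a log2 fold of 1. In tumor cells the summed ratio was 0.38 under TMM, 0.28 after thinning and 0.30 as a mean of cells. Genes lower there were 2 with the strict filter, after thinning and as a mean of cells, and 0 with the stricter gate, with a minimum of 200 counts and at a fold of 1. Genes higher were 2 in Louvain clusters and 0 at a fold of 1. The median stayed between -0.37 and -0.13 in monocytes and between 0.17 and 0.25 in tumor cells over all alternatives run. The macrophage level over that of tumor cells was 2.86, 3.02, 2.998, 3.07, 2.93 and 2.82 in the Lmo7+/+ library with the lenient filter, without doublets, in Louvain clusters, with the stricter gate, after thinning and as a mean of cells. In the Lmo7-/- library it was 2.24, 2.34, 2.36, 2.36 and 2.17 with the lenient filter, the strict filter, without doublets, with the stricter gate and as a mean of cells. Over single genes 34 of 418 values in macrophages, 29 of 418 in monocytes and 25 of 380 in tumor cells took the other sign. In monocytes and tumor cells none of them was for a gene past the fold, and macrophages had no such gene. Apart from the alternatives' own construction, the cause of these shifts was not tested.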

Other observations

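Among nucleic acid sensors and their adaptors, 11 had 50 counts in monocytes and 3 of them were lower past the fold in the Lmo7-/- library, with a median log2 ratio of -0.41, beside 5.2% of all 9276 genes lower. Cgas, the sensor of cytosolic DNA, was at 41.1 and 25.6 CPM there and at 41.1 and 27.2 CPM in macrophages, where it was the 1 of 11 past the fold, beside 7.62% of all 11777 genes, and the median was 0.07. That macrophage share is near the share of all genes. In tumor cells Cgas was at 35.2 and 35.3 CPM, and 0 of 10 passed the fold. Ddx58, a sensor of foreign RNA, was at 62.5 and 41.3 CPM in monocytes and at 47.7 and 48.4 CPM in tumor cells. The third gene past the fold in monocytes, Ticam1, was at 8.96 and 6.15 CPM, with an interval that held 0. Within the fold there, Myd88 had a log2 ratio of -0.50 (-0.69 to -0.31). Tmem173, Tbk1 and Ikbke had monocyte ratios of 0.24, 0.28 and 0.45, with intervals above 0.

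Of the genes that restrain interferon signaling, 7 had 50 counts in macrophages, monocytes and tumor cells, with medians of 0.11, -0.10 and -0.07. Socs1, an inhibitor of the receptor kinases, was at 38.1 and 56.9 CPM in macrophages and at 35.1 and 54.6 CPM in monocytes, the 1 of 7 past the fold in each, beside 3.29% and 3.34% of all genes higher, and it is also on the interferon gamma-biased list. In tumor cells Socs1 was at 70.4 and 77.2 CPM, and 0 of 7 passed. No test between the genotypes was possible for any of these values.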
